A study of Mus musculus with 18 samples.

Results

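The immunity-related GTPases examined here are 7 mouse genes, *Irgm1*, *Irgm2*, *Igtp*, *Iigp1*, *Ifi47*, *Tgtp1* and *Tgtp2*. They were chosen by name, as the rows of the expression table whose gene symbol is one of these 7, and they make up 7 of its 62197 genes. All 7 were among the 17875 genes tested, those that reached 10 normalized counts in 3 libraries or more.

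The data are bulk RNA-seq of bone marrow-derived dendritic cells (DCs) grown for 10 days with granulocyte-macrophage colony-stimulating factor, from cPLA_2_ WT mice and from cPLA_2_ KO mice, whose floxed *Pla2g4a* alleles are removed by a Cre driven by the *Itgax* promoter. The nonconfined groups were taken at the end of culture, the confined groups 4 h after being held under a roof 3 µm high, and the groups given lipopolysaccharide (LPS) the day after 100 ng ml-1 for 30 min, as labelled (the methods give another time), and a wash. Each of the 6 conditions has 3 libraries, which are called biological replicates, and no label says which of them came from separate mice, so p-values measure the spread between these libraries. The labels give no age or sex for the donors. The study collected the semiadherent cells as DCs, since nonadherent granulocytes and firmly attached macrophages arise in the same dishes. Recovered reads on genes ranged from 33027230 to 61300021 per library, with a median of 40950398.

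Immunity-related GTPases (IRGs) are proteins of cell-autonomous defence that interferons induce. The effector IRGs, of the GKS class, load onto the membrane of vacuoles that hold parasites such as *Toxoplasma* or bacteria such as *Chlamydia* and break it open, and the regulatory IRGM proteins, of the GMS class, stay on the cell's own membranes and keep the effectors inactive there. In DCs and macrophages the family is known from infection and from treatment with interferon-γ or LPS.

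The targeted gene was read first, as a check of the labels. *Pla2g4a* held 697, 686 and 770 normalized counts in the nonconfined cPLA_2_ WT libraries and 548, 542 and 533 in the nonconfined cPLA_2_ KO libraries. In confined cells it held 1369, 1430 and 1321 in cPLA_2_ WT against 923, 871 and 920 in cPLA_2_ KO. The libraries labelled cPLA_2_ KO were therefore lower without overlap in both settings, by −0.41 on the log2 scale without confinement (limma, adjusted p = 1.9e-04) but by −0.60 with it (adjusted p = 3.8e-08), but far from 0. Which cells and exons the remaining reads came from was not tested. With LPS the order of the labels was not kept. *Pla2g4a* held 1005, 969 and 967 normalized counts in the libraries labelled cPLA_2_ WT and 1065, 1032 and 1028 in those labelled cPLA_2_ KO, so each library labelled cPLA_2_ KO was above all 3 of the other label.

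A Y-linked gene showed the same break. *Ddx3y*, an RNA helicase gene on the Y chromosome, held 949, 981 and 874 normalized counts in the nonconfined and 1036, 920 and 948 in the confined cPLA_2_ KO libraries, against at most 3.05 in every nonconfined and confined cPLA_2_ WT library. In the LPS libraries it held 1271, 0 and 662 with the label cPLA_2_ WT and 2.12, 1476 and 783 with the label cPLA_2_ KO. Levels near 0 thus stood in 1 LPS library of each label, and intermediate ones in the third replicate of each. The genotype of single LPS libraries is in doubt, "labelled" is written wherever it is used, and LPS levels are also compared over the pooled labels. In nonconfined and confined cells this gene followed the genotype labels. *Xist*, the RNA of the inactive X chromosome, held 12153, 19081 and 14328 in nonconfined and 16980, 24835 and 20600 in confined cPLA_2_ KO libraries, lower on average than in cPLA_2_ WT but far from 0, so both Y-linked and *Xist* RNA were present in each of them. Genotype cannot be told apart from the sex of the donors there.

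*Irgm1*, a regulator found on Golgi and lysosomal membranes, is row GSMG0009132 of the table, on chromosome 11 of mm39 from 48752795 to 48762513. It held 4567, 4976 and 4783 normalized counts in nonconfined cPLA_2_ WT DCs and 4809, 4918 and 4527 in nonconfined cPLA_2_ KO DCs. After confinement it held 8859, 8633 and 8347 in cPLA_2_ WT against 1874, 1605 and 1820 in cPLA_2_ KO DCs. The genotypes overlapped before confinement, and then every cPLA_2_ WT library was above and every cPLA_2_ KO library below all 6 nonconfined ones. With LPS the values were 20274, 19541 and 20483 in libraries labelled cPLA_2_ WT and 19585, 21010 and 19867 in those labelled cPLA_2_ KO. These 6 were the highest of the 18 libraries and overlapped between the labels. On the scale of log2(normalized count + 1), *Irgm1* rose by 0.85 (SE 0.05, limma adjusted p = 1.3e-11) with confinement in cPLA_2_ WT DCs. In cPLA_2_ KO DCs it changed by −1.43 (SE 0.05, adjusted p = 8.8e-15).

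*Irgm2*, a regulator known from the Golgi, is row GSMG0007426, on chromosome 11 from 58105800 to 58113608. Nonconfined libraries held 2969, 2871 and 3066 normalized counts in cPLA_2_ WT against 3115, 3225 and 3149 in cPLA_2_ KO DCs. Confined libraries held 5489, 5327 and 5644 in cPLA_2_ WT against 1270, 1163 and 1361 in cPLA_2_ KO DCs. Without confinement the cPLA_2_ KO libraries were all slightly above those of cPLA_2_ WT, and with it they were all far below. LPS libraries held 9202, 7822 and 8898 with the label cPLA_2_ WT and 8118, 9676 and 8639 with the label cPLA_2_ KO, mixed between the labels and above all others. The LPS libraries with *Ddx3y* near 0 were the lowest of these, at 7822 and 8118. Those with the most *Ddx3y* were the highest, at 9202 and 9676. *Igtp* had the same order, and *Iigp1* and *Tgtp1* were instead higher in the former than in the latter. Confinement changed *Irgm2* by 0.89 in cPLA_2_ WT (SE 0.07, adjusted p = 2.4e-10) but by −1.32 in cPLA_2_ KO DCs (SE 0.07, adjusted p = 9.3e-13).

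*Igtp*, also called Irgm3, is the regulator of the endoplasmic reticulum and of lipid droplets, and in DCs it is known for a part in cross-presentation. Its row, GSMG0007425, lies on chromosome 11 from 58090381 to 58098417. It held 2050, 1993 and 1835 normalized counts in nonconfined cPLA_2_ WT against 2065, 2114 and 1924 in nonconfined cPLA_2_ KO DCs, with overlap. With confinement it held 4149, 3895 and 4030 in cPLA_2_ WT against 729, 621 and 714 in cPLA_2_ KO DCs, on opposite sides of the nonconfined libraries. LPS libraries held 8259, 7190 and 7478 with the label cPLA_2_ WT and 7305, 8255 and 7842 with the label cPLA_2_ KO, with the same overlap. The change with confinement was 1.04 in cPLA_2_ WT (SE 0.07, adjusted p = 2.0e-11) and −1.57 in cPLA_2_ KO DCs (SE 0.07, adjusted p = 7.1e-14).

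*Iigp1*, also called Irga6, is the effector that has been studied most at the *Toxoplasma* vacuole, and the only member on chromosome 18, from 60506688 to 60525699 (row GSMG0025921). It was the least abundant one. It held 69.3, 59.7 and 53.1 normalized counts in nonconfined cPLA_2_ WT against 58.0, 39.1 and 57.3 in nonconfined cPLA_2_ KO DCs. Confined libraries held 272.5, 271 and 261 in cPLA_2_ WT against 17.3, 14.9 and 36.5 in cPLA_2_ KO DCs. The highest confined cPLA_2_ KO library came within a few counts of the lowest nonconfined one, so this was the narrowest gap among the members. LPS libraries held 834, 1079 and 869 with the label cPLA_2_ WT and 982, 946 and 952 with the label cPLA_2_ KO. The gain with LPS was the largest of the 7 on the log2 scale. Confinement changed *Iigp1* by 2.13 in cPLA_2_ WT (SE 0.23, adjusted p = 5.3e-08) but by −1.22 in cPLA_2_ KO DCs (SE 0.23, adjusted p = 1.4e-04).

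*Tgtp1* and *Tgtp2*, near-identical effector genes also called Irgb6, lie on chromosome 11 from 48876156 to 48883075 (row GSMG0009140) and from 48948023 to 48955039 (row GSMG0009139). *Tgtp1* held 141.0, 192 and 162 normalized counts in nonconfined cPLA_2_ WT DCs, against 174, 136 and 133 in their cPLA_2_ KO counterparts, and with confinement 914, 874 and 823, against 25.9, 37.3 and 36.5. *Tgtp2* held 1284, 1236 and 1280, then 1211, 1070 and 1024, then 3927, 3981 and 3815, and last 309.7, 271 and 248 in these 4 groups in the same order. Both were highest in confined cPLA_2_ WT against lowest in confined cPLA_2_ KO libraries among these 12, and for *Tgtp2* the nonconfined cPLA_2_ KO libraries were also all below those of nonconfined cPLA_2_ WT. In LPS libraries *Tgtp1* held 1230, 1713 and 1514 with the label cPLA_2_ WT and 1475, 1335 and 1493 with the label cPLA_2_ KO. *Tgtp2* held 6256, 6554 and 6296, and 6346, 6382 and 6516, in the same order. The labels overlapped for both genes.

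The pair had the largest changes in confined cPLA_2_ KO DCs. *Tgtp1* changed by −2.13 there (SE 0.15, adjusted p = 1.4e-10) and by 2.40 in cPLA_2_ WT DCs (SE 0.15, adjusted p = 7.7e-12). *Tgtp2* changed by −1.99 (SE 0.07, adjusted p = 1.6e-15) and by 1.62 (SE 0.07, adjusted p = 1.1e-14). Their separate rows are uncertain. Of the 2786 windows of 100 bases, the read length, in the canonical *Tgtp1* transcript of GENCODE, 2180 occur letter for letter in *Tgtp2* transcripts, as do 2180 of the 2711 windows of *Tgtp2* in those of *Tgtp1*, so the counting could have split or dropped reads. The sum of both rows changed by 1.74 with confinement for cPLA_2_ WT but by −2.01 for cPLA_2_ KO DCs.

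*Ifi47*, also called Irgd, is an effector-class IRG, and its row GSMG0007284 on chromosome 11 from 48941560 to 49026214 is shared with the olfactory receptor gene *Olfr56* and spans *Tgtp2* on the other strand. The libraries were made strand-specific, and whether the counting used the strand was not tested. It held 1935, 2006 and 2064 normalized counts in nonconfined cPLA_2_ WT against 2138, 1975 and 1972 in nonconfined cPLA_2_ KO DCs. Confined libraries held 5417, 5244 and 5320 in cPLA_2_ WT against 818, 722 and 702 in cPLA_2_ KO DCs. The genotypes overlapped before confinement and were far apart after it. LPS libraries held 14177, 13909 and 14323 with the label cPLA_2_ WT and 13826, 14743 and 14688 with the label cPLA_2_ KO. *Ifi47* changed with confinement by 1.41 in cPLA_2_ WT (SE 0.05, adjusted p = 1.9e-15) but by −1.44 in cPLA_2_ KO DCs (SE 0.05, adjusted p = 6.4e-15), nearly equal sizes of opposite sign.

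**Figure D1:**
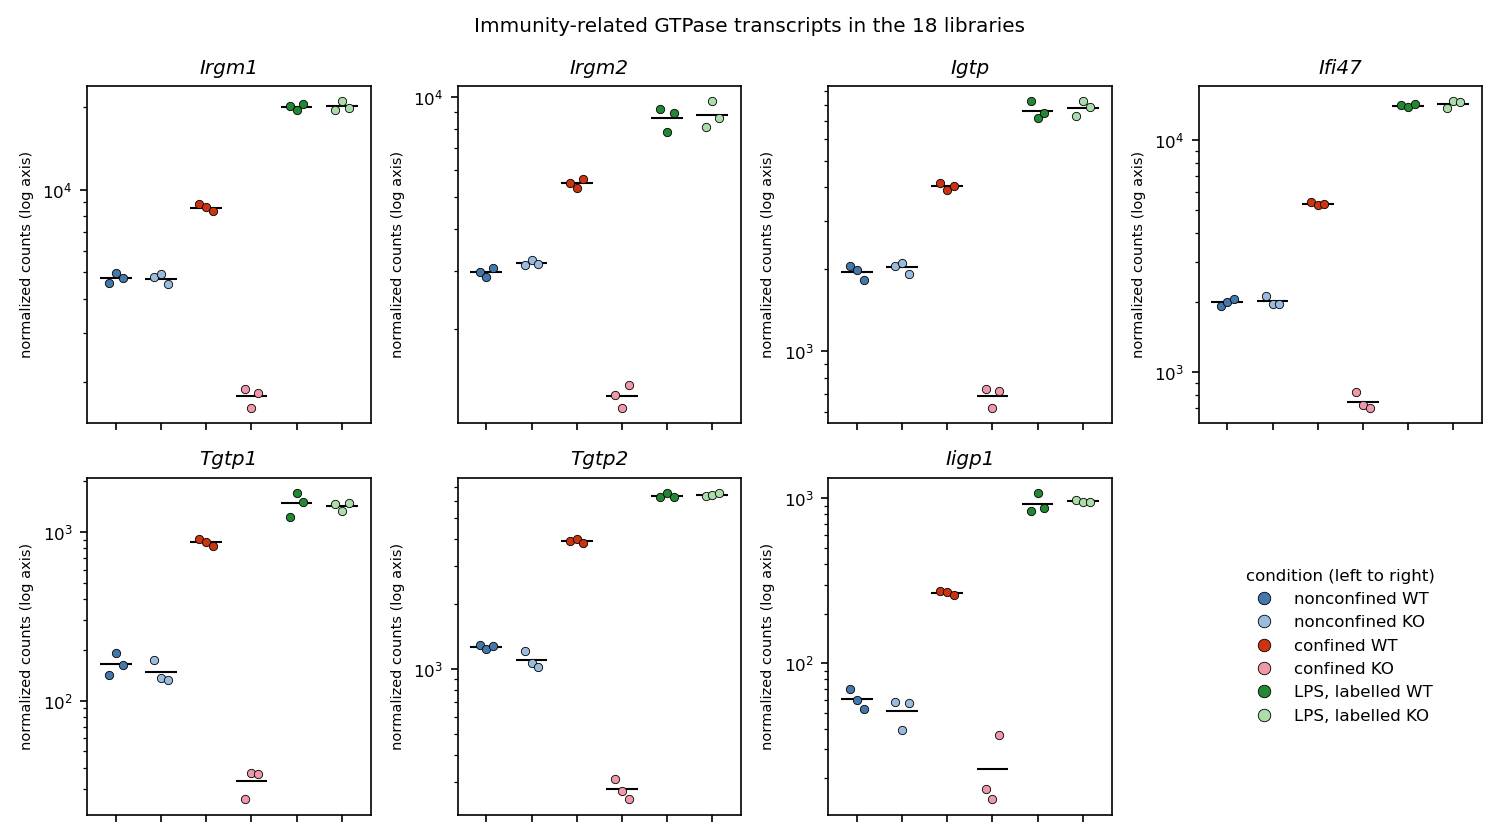
Normalized counts (log axis) of each member in the 18 libraries. Points are libraries, 3 in each condition, and lines are their means. In every panel the confined cPLA_2_ KO libraries are lowest, the nonconfined ones of both genotypes lie together, and the confined cPLA_2_ WT libraries lie between them and the 6 LPS libraries.

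Confinement thus moved these 7 genes up in one genotype and down in the other. In cPLA_2_ WT DCs 7 of 7 members were higher with confinement, against 28.2% of the 17875 genes tested, with a median change of 1.41 over the members and of −0.01 over all genes tested. In cPLA_2_ KO DCs 7 of 7 members were lower with confinement, against 23.4% of all genes, with a median of −1.44 over the members and 0.01 over all genes. The difference between these changes was tested as an interaction, and 7 of 7 members had a lower change in cPLA_2_ KO DCs, against 15.6% of all genes. It ranged from −2.21 for *Irgm2* (SE 0.09, adjusted p = 5.5e-14) to −4.53 for *Tgtp1* (SE 0.21, adjusted p = 1.8e-13). The 3 regulators had the smallest differences, and the 4 effectors ranged from −2.85 to −4.53. These directions were the same with each scaling tried, although with scaling to the same total the median of all genes stood at −0.23 for confinement in cPLA_2_ WT DCs and at 0.24 for the interaction, against −0.01 and 0.05 with the deposited scaling.

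In confined cells set side by side, 7 of 7 members were lower in the cPLA_2_ KO group, against 20.6% of all genes. Group means were 1766 ± 142 against 8613 ± 257 normalized counts for *Irgm1* and 33.2 ± 6.36 against 870 ± 45.5 for *Tgtp1* (SD, n = 3 each). The log2 differences ran from −2.12 for *Irgm2* (SE 0.07, adjusted p = 1.3e-16) to −4.69 for *Tgtp1* (SE 0.15, adjusted p = 1.3e-16). All 3 cPLA_2_ KO libraries were below all 3 cPLA_2_ WT libraries for each of the 7 genes, as they were for 24.8% of all genes tested.

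Without confinement such a gap was seen for 1 member only. Every cPLA_2_ KO library was below every cPLA_2_ WT library for *Tgtp2*, as was so for 13.8% of all genes tested. For 1 other member, *Irgm2*, every cPLA_2_ KO library was above, as was so for 14.8% of all genes tested. By limma, 0 of 7 members differed between the genotypes in nonconfined DCs, while 8.88% of all genes did in either direction, 1588 genes, a count that ranged from 756 to 2097 with single libraries left out and was 756 without the first cPLA_2_ KO library. At an unadjusted p under 0.05 the count was 1, *Tgtp2*, at −0.21 (SE 0.07, adjusted p = 0.064). *Tgtp2* lies close to the threshold, and it passed with DESeq2 on the recovered reads (adjusted p = 0.015) and without the first nonconfined cPLA_2_ KO library (−0.28, adjusted p = 0.024), whereas edgeR gave an adjusted p of 0.065. The other differences were −0.01 for *Irgm1* (SE 0.05), 0.09 for *Irgm2* (SE 0.07), 0.05 for *Igtp* (SE 0.07), 0.02 for *Ifi47* (SE 0.05), −0.16 for *Tgtp1* (SE 0.15) and −0.25 for *Iigp1* (SE 0.23). The last 2 have the largest errors, and a difference of that size between the genotypes cannot be told from 0 here.

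LPS gave the highest levels of each member. Over the pooled labels, 7 of 7 members were higher with LPS than in nonconfined DCs, against 37.2% of all genes. Summed markers of DCs and of other cells in the culture also differed with LPS, as given below. By label, 7 of 7 were higher with the label cPLA_2_ WT and 7 of 7 with the label cPLA_2_ KO, each against 33.4% of all genes, or 5965 and 5972 genes, which became 3164 and 3247 with scaling to the same total. The pooled change was largest for *Iigp1*, at 4.06 (SE 0.16, adjusted p = 1.0e-15), followed by *Tgtp1* at 3.22 (SE 0.10) and *Ifi47* at 2.82 (SE 0.04). It was smallest for *Irgm2*, at 1.51 (SE 0.05, adjusted p = 1.8e-17), with *Igtp* at 1.95, *Irgm1* at 2.08 and *Tgtp2* at 2.44 between. The 3 regulators had the smallest of these changes. With confinement in cPLA_2_ KO DCs there was no such order, as the effector *Ifi47* (−1.44) lay between the regulators *Irgm1* (−1.43) and *Igtp* (−1.57), and no difference between the classes was tested.

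The genotype labels made no measured difference to the LPS libraries. Between the labels 0 of 7 members differed, as did 0% of all genes, at an unadjusted p under 0.05 the count of members was also 0, and edgeR and DESeq2 gave 0 as well. The interaction of label and LPS gave 0 of 7 members, against 1.28% of all genes, or 228 genes. With single libraries left out that count of genes ranged from 128 to 524. At an unadjusted p under 0.05 the interaction gave 1 member, *Tgtp2*, at 0.22 (SE 0.10, adjusted p = 0.36). Since the labels of these libraries are in doubt, these counts say nothing of the genotype.

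Confined cPLA_2_ WT DCs stayed below the LPS level. Set against LPS libraries labelled cPLA_2_ WT, 7 of 7 members were lower, against 27.2% of all genes, and confined cPLA_2_ KO DCs had 7 of 7 lower than the libraries labelled cPLA_2_ KO, against 30.6%. Against all LPS libraries with the labels pooled, 7 of 7 were lower in confined cPLA_2_ WT DCs, against 29.8% of all genes, with folds from 0.286 for *Iigp1* to 0.630 for *Irgm2*. In confined cPLA_2_ KO DCs 7 of 7 were lower than the pooled libraries, against 32.5% of all genes. By label, the counts of all genes lower went from 4870 to 2448 and from 5475 to 2794 with scaling to the same total, and the 7 members were lower with it too. The members did not reach the same share of the LPS level. In confined cPLA_2_ WT DCs *Irgm2* stood at a fold of 0.636 of the level in libraries labelled cPLA_2_ WT, *Tgtp2* at 0.614 and *Tgtp1* at 0.591. *Igtp* at 0.527 and *Irgm1* at 0.429 came next, while *Ifi47* at 0.377 and *Iigp1* at 0.292 stayed furthest below. Only *Irgm1*, *Ifi47* and *Iigp1* were lower by more than 1 on the log2 scale. In confined cPLA_2_ KO DCs the folds of the level in libraries labelled cPLA_2_ KO ran from 0.0231 to 0.144, and those of the pooled level from 0.0233 to 0.145, with *Iigp1* and *Tgtp1* close together at the low end of both and *Irgm2* at the high end. The comparisons with confinement and with LPS share the nonconfined libraries.

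**Figure D2:**
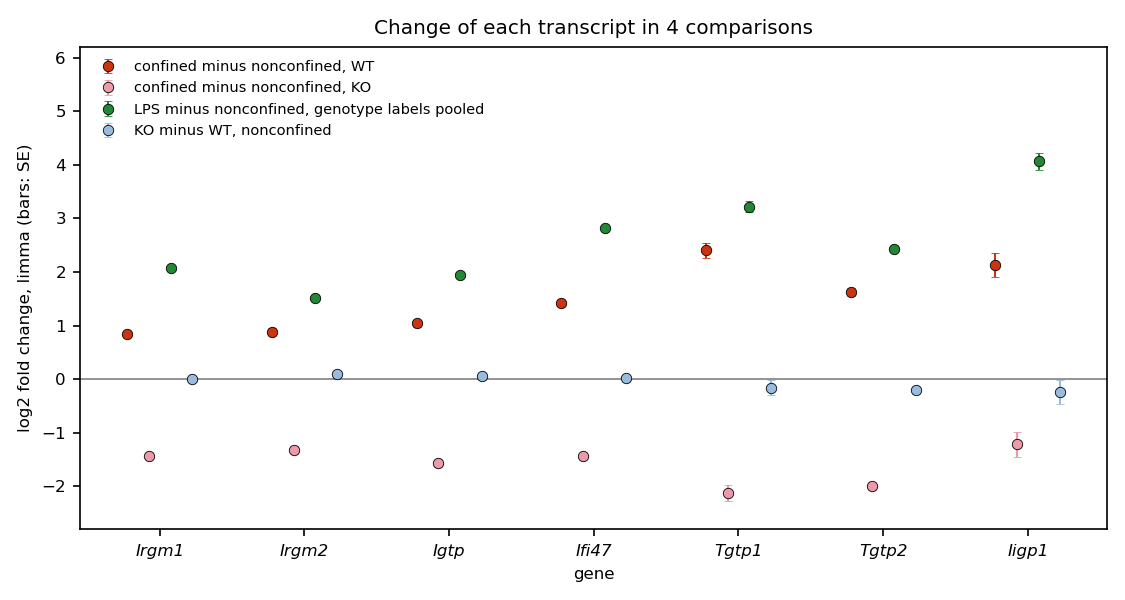
Log2 fold change of each member (vertical axis, limma, bars show the SE, some smaller than the points) in 4 comparisons of 3 libraries against 3, or 6 against 6 for LPS with the labels pooled. Confinement points lie above 0 in cPLA_2_ WT DCs but below 0 in cPLA_2_ KO DCs, from 0.85 to 2.40 and from −2.13 to −1.22.

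Levels of different members can be compared only per length. Per kilobase of the canonical GENCODE transcript, nonconfined cPLA_2_ WT DCs held 2289 normalized counts of *Irgm1*, 1171 of *Ifi47*, 857 of *Igtp* and 851 of *Irgm2*. *Tgtp2* followed with 451, *Tgtp1* with 57.2, and *Iigp1* was the lowest. By these lengths the 3 regulators were among the 4 most abundant transcripts before any stimulus. The row of *Ifi47* also covers *Olfr56*, and reads of *Tgtp1* and *Tgtp2* could have been split or dropped. The places of these 3 genes in the order are therefore uncertain. In the LPS libraries labelled cPLA_2_ WT the order began in the same way, with 9635 for *Irgm1* and 8272 for *Ifi47*, and *Iigp1* at 305 was still the lowest. In confined cPLA_2_ KO DCs *Irgm1* held 847 per kilobase and *Iigp1* 7.53.

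Across the 18 libraries the members moved together. Pearson's r on the log2 scale ranged from 0.956 to 0.998 over the 21 pairs of members, a description of 6 conditions and not of 18 independent points. Of 10547 other genes with a symbol and a mean level of 100 or more, the 5 with the profile most like the mean of the members were *Usp18*, with r = 0.9995, *Slfn8*, *Trim30d*, *Xaf1* and *Il2ra*, the last with r = 0.997. *Usp18*, which encodes the protease that removes ISG15 and dampens the interferon receptor, changed by 1.49 with confinement in cPLA_2_ WT against by −1.55 in cPLA_2_ KO DCs.

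**Figure D3:**
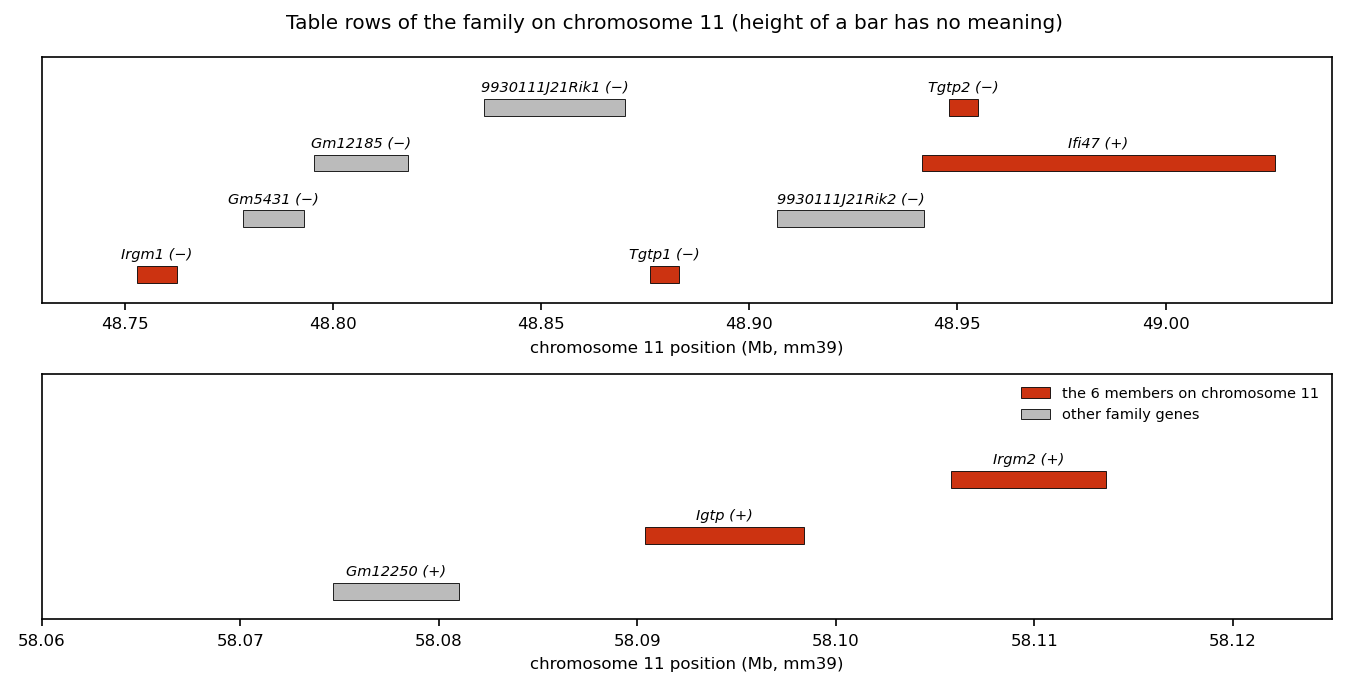
Positions of the 6 members on chromosome 11 and of other genes of the family (horizontal axis, Mb of mm39), with the strand in parentheses. The upper stretch holds *Irgm1*, *Tgtp1*, *Tgtp2* and *Ifi47*, the lower one *Igtp* and *Irgm2*, and the vertical position only separates the names.

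The members on chromosome 11 fall into 2 clusters, one with *Irgm1*, *Tgtp1*, *Tgtp2* and *Ifi47* and the other with *Igtp* and *Irgm2*. In GENCODE the gene models of *Igtp* and *Irgm2* overlap, and 154 of the 2186 windows of 100 bases of *Igtp* also occur in *Irgm2* transcripts. The reference promoters of 6 members, RefSeq sequences of 300 bases with 250 before the transcript start, were taken from a table of build GRCm38.p6 and found again letter for letter, once each, on chromosome 11 of GRCm39. *Iigp1* has no entry in it. They were searched on both strands for the interferon-γ-activated sequence or GAS motif (TTCNNNGAA), the interferon-stimulated response element or ISRE (GAAANNGAAA) and a κB-type motif (GGGANNTTCC). GAS letters were found in 4 of 6 member promoters, against 8.30% of the 32851 promoters in the table, ISRE letters in 5 of 6, against 3.44%, and the κB-type letters in 0 of 6, against 1.47%. The *Ifi47* promoter held none of the 3. Around the motifs the promoters of *Irgm2* and *Igtp* are closely similar, as are those of *Tgtp1* and *Tgtp2*, so these matches are not independent of each other.

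In *Irgm2*, *Igtp*, *Tgtp1* and *Tgtp2* the GAS and ISRE letters stood in the same order with 2 bases between them. This arrangement, which was looked for after the matches had been seen, occurs in 5 of the 32851 promoters. The fifth is that of *Gm12185*, another gene of the family in the cluster of *Irgm1*, and it is closely similar to the *Tgtp2* promoter. The stretches are shown because the members move together across the conditions and 4 share this block in both clusters. They run 5′ to 3′ on the gene's strand, with GAS and ISRE letters in capitals (for *Irgm1* 2 overlapping ISRE matches and no GAS), at chr11:58105708-58105768 for *Irgm2*, chr11:58090317-58090377 for *Igtp*, chr11:48883121-48883181 for *Tgtp1*, chr11:48955080-48955140 for *Tgtp2* and chr11:48762242-48762297 for *Irgm1* (GRCm39, plus strand for *Irgm2* and *Igtp*, minus strand for the others).
Irgm2: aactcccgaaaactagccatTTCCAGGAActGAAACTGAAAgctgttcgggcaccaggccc
Igtp: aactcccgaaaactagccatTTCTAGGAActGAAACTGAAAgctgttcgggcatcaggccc
Tgtp1: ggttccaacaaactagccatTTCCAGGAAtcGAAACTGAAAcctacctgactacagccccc
Tgtp2: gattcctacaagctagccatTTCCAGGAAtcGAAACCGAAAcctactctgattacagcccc
Irgm1: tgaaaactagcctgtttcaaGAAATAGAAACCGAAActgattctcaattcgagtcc
The first capital lies 75 bases before the transcript start in *Irgm2*, 45 in *Igtp*, 88 in *Tgtp1*, 81 in *Tgtp2* and 30 in *Irgm1*. A match of letters is a description of the sequence, and no binding was measured.

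Other genes of the family were taken from a fixed list of 18 symbols, of which 10 are in the table. With confinement 8 of these 10 were higher and 0 lower in cPLA_2_ WT DCs (median 1.08), and 1 was higher and 5 lower in cPLA_2_ KO DCs (median −0.63). Of all 17875 genes tested, 5038 were higher and 5075 lower in cPLA_2_ WT DCs, and 4081 higher and 4190 lower in cPLA_2_ KO DCs. *Gm12250*, the locus of the effector Irgb10, changed by 0.72 and −2.30, and *Gm5431* by 0.88 and −1.64. *Irgc1*, by contrast, rose in both, by 1.26 and 0.79. The 2 relatives without a called gain in cPLA_2_ WT DCs were *9930111J21Rik1*, at 0.05 in a row shared with *Psme2b*, and *9930111J21Rik2*, at −0.25.

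Interferon genes set the members in context. *Ifnb1*, which encodes interferon-β, held 3.05, 5.12 and 5.90 normalized counts in nonconfined cPLA_2_ WT against 0, 1.86 and 3.88 in nonconfined cPLA_2_ KO DCs. It held 105, 92.6 and 103 in confined cPLA_2_ WT against 11.9, 6.40 and 6.38 in confined cPLA_2_ KO DCs, and between 134 and 167 in the LPS libraries. Unlike the members, *Ifnb1* was thus not below its nonconfined level in confined cPLA_2_ KO DCs, where it rose by 1.88 (SE 0.42, adjusted p = 9.0e-04). *Ifng* was at 0 in all 12 nonconfined and confined libraries and at most 4.24 in an LPS library. *Irf1*, which encodes a factor that binds ISRE sites, had mean levels of 1981 (cPLA_2_ WT) and 2032 (cPLA_2_ KO) without and 4158 and 1437 with confinement. With LPS it reached 6406 and 6726 by label, so it followed the order of the members.

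Lists of related genes moved in part with the members, and over all 17875 genes tested 5038 were higher and 5075 lower with confinement in cPLA_2_ WT DCs, and 4081 higher and 4190 lower in cPLA_2_ KO DCs. Of the 14 interferon signalling genes tested, 12 were higher and 0 lower with confinement in cPLA_2_ WT DCs, and 3 were higher and 7 lower in cPLA_2_ KO DCs, with *Usp18*, *Jak2*, *Stat2* and *Ifnar1* having the largest changes in cPLA_2_ WT at a mean of 100 or more. For the guanylate-binding proteins, partner GTPases of the IRGs at vacuoles, the counts were 7 higher and 1 lower, then 0 higher and 11 lower, of 11, with the largest gains in cPLA_2_ WT DCs for *Gbp5*, *Gbp4*, *Gbp2* and *Gbp3*. The 12 other interferon response genes gave 11 higher and 1 lower, then 2 higher and 8 lower. The largest gains in cPLA_2_ WT DCs were those of *Cxcl10*, *Cxcl9*, *Rsad2* and *Oasl1*, none of which was among the 8 that were lower in cPLA_2_ KO DCs. The ATG8 conjugation genes, which direct IRGs to vacuoles, had 5 of 10 higher and 2 lower in cPLA_2_ WT (median 0.17) and 7 higher and 0 lower in cPLA_2_ KO DCs (median 0.26), led by *Gabarapl1* with 1.43 in both. Of the 3 vacuole ubiquitin and adaptor genes, 3 were higher for cPLA_2_ WT, while for cPLA_2_ KO DCs *Sqstm1* and *Traf6* were higher and *Trim21* was lower, at −1.14.

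Markers of other cells in the culture differed between the genotypes too. The summed level of 8 neutrophil markers, of which *S100a9* was the most abundant, was 224188, 229535 and 227720 in nonconfined cPLA_2_ WT DCs, and 351928, 315594 and 340235 in their cPLA_2_ KO counterparts. With confinement it was 143231, 136705 and 134339, against 313593, 328153 and 312293. The cPLA_2_ KO libraries were above those of cPLA_2_ WT in both settings without overlap. All 8 were higher in confined cPLA_2_ KO than in confined cPLA_2_ WT DCs, and 6 of 8 without confinement, where 0 of 7 members were called. Of all 17875 genes tested, 3356 were higher and 3682 lower in cPLA_2_ KO DCs with confinement, and 854 higher and 734 lower without it. The 4 eosinophil markers, led by *Prg2*, summed to 27963 ± 194 (cPLA_2_ WT) and 65342 ± 2193 (cPLA_2_ KO) without and to 7081 ± 294 and 16381 ± 463 with confinement (SD, n = 3 each). Of these, 3 were higher and *Siglecf* lower in cPLA_2_ KO libraries in both settings. The 6 mast cell and basophil markers, of which *Hdc* was the most abundant in confined cPLA_2_ WT libraries and *Cpa3* in the other nonconfined and confined ones, summed to 7032 ± 173, 10390 ± 223, 15271 ± 336 and 6432 ± 85.1 in the same order, and *Hdc* rose by 4.07 with confinement in cPLA_2_ WT DCs, while 4 of the other 5 were lower there. Those 5 were all higher in confined cPLA_2_ KO than in confined cPLA_2_ WT libraries, and *Hdc* alone was lower. In LPS libraries labelled cPLA_2_ WT and cPLA_2_ KO the neutrophil markers summed to 277844 ± 10645 and 274818 ± 17644. There the mast cell and basophil markers, with *Hdc* the most abundant, summed to 16722 ± 1419 and 17030 ± 1477. The eosinophil markers summed to 31483 ± 8221 and 31505 ± 8137. Set against nonconfined DCs, 3 neutrophil markers were higher and 3 lower with the label cPLA_2_ WT, and 0 higher and 6 lower with the label cPLA_2_ KO. For mast cells and basophils the counts were 1 and 2, then 1 and 5, and for eosinophils 0 and 1, then 0 and 3. Of all genes tested, 5965 were higher and 5258 lower, then 5972 and 5384. Among the LPS libraries the eosinophil sum was lowest where *Ddx3y* was near 0, at 23288 and 23085. The part of all these cell types in the results on the members was not tested. Fewer cells of a type and less RNA per cell cannot be told apart in bulk samples.

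Markers of the labelled cell type were present, some of them at low levels. The 8 DC markers summed to 427304 ± 13289 (cPLA_2_ WT) and 509595 ± 16414 (cPLA_2_ KO) without and to 393375 ± 14412 and 357535 ± 7561 with confinement (SD, n = 3 each). *Cd74*, *H2-Aa* and *H2-Ab1* made up most of these sums, while confined libraries held 27.0 to 53.2 of *Flt3* and 16.6 to 45.9 of *Cd209a*. Between the genotypes, 3 DC markers were higher and 1 lower in nonconfined cPLA_2_ KO DCs, and 0 higher and 2 lower in confined ones. The 8 macrophage markers, led by *Csf1r*, summed to 62752 ± 1625, 68092 ± 2038, 62202 ± 1260 and 67504 ± 3416. Neither sum rose with confinement in cPLA_2_ WT DCs, where 6 DC markers were lower and 1 higher and 4 macrophage markers were lower and 1 higher. In cPLA_2_ KO DCs 5 macrophage markers were lower and 1 higher. In LPS libraries labelled cPLA_2_ WT and cPLA_2_ KO the DC markers summed to 589294 ± 43172 and 592876 ± 35004. Against nonconfined DCs 6 of them were higher and 1 lower with the label cPLA_2_ WT, and 4 higher and 1 lower with the label cPLA_2_ KO. *Cd209a* held 6.17 to 15.9 in LPS libraries, against 153 to 188 in nonconfined ones. The macrophage markers summed to 56081 ± 4855 and 55459 ± 4066 with LPS, by label. The DC marker *Ccr7*, a chemokine receptor gene, did move as the members did, by 1.05 in cPLA_2_ WT DCs but by −0.88 in cPLA_2_ KO DCs, where all 8 DC markers were lower with confinement. The 8 markers of T and NK cells, known sources of interferon-γ, summed to at most 310 in any library. Of the 3 that were tested, 3 were lower and 0 higher with confinement in cPLA_2_ WT DCs (median −1.30). The counts were the same in cPLA_2_ KO DCs (median −1.13), against 5075 and 4190 of all 17875 genes lower. *Gzma* and *Eomes* were at 0 in each library outside the confined cPLA_2_ WT group, where they reached at most 3.87 and 1.72 normalized counts.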

How the data were processed

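Bulk RNA-seq of 18 libraries in 6 conditions was read from 1 table. Per the labels and as deposited by the authors, the signal values are normalized counts per gene, made with STAR 2.7.5a, featureCounts 1.5.0 and DESeq2 in R 3.5.3 on FAST DB gene models of mm39. Divided by 1 factor per library, 100% of the values became whole numbers (tolerance 1e-06, largest deviation 2.7e-09), and these recovered reads gave the depth, from 33027230 to 61300021 per library.

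Genes with 10 normalized counts in 3 libraries (17875 of 62197, of which 37020 have no symbol) were fitted with limma 3.58.1 (trend) in R 4.3.3 on log2(normalized count + 1) with 6 group means, and p was adjusted by Benjamini and Hochberg over all genes tested, with a threshold of 0.05. Interactions were tested as contrasts. The recovered reads were also fitted with edgeR 4.0.16 (quasi-likelihood) and DESeq2 1.42.0. Other alternatives were TMM scaling, the same total per library, a pseudocount of 0.5 or of 5, a minimum of 100 or of no counts, a threshold of 1 on the log2 fold change, the compared conditions alone, a replicate block, summed *Tgtp1* and *Tgtp2*, pooled LPS labels, and each library left out.

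Members and gene lists were chosen with earlier results of these data known, and 1 gene of the interferon signalling list is not reported here and was left out of its counts. Up to 4 genes of a list are named by the size of their change with confinement in cPLA_2_ WT DCs, at a mean of 100 or more. Others are named as examples or as the most abundant of a list. Lengths come from GENCODE vM39 and promoters from RefSeq. The protocol text of all samples mentions LPS, but titles and treatment name it only for the LPS groups. Figures were drawn with matplotlib 3.10.9.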

Additional observations from a re-analysis of the deposited data

Results flagged for a closer look

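The change with confinement differed between cPLA_2_ WT and cPLA_2_ KO DCs for each member when the difference itself was tested as an interaction in limma. On the log2 scale it was −2.28 for *Irgm1* (adjusted p = 7.9e-16), −2.21 for *Irgm2* (adjusted p = 5.5e-14), −2.60 for *Igtp* (adjusted p = 3.7e-15) and −3.35 for *Iigp1* (adjusted p = 3.9e-08). It was −2.85 for *Ifi47* (adjusted p = 1.4e-17), −4.53 for *Tgtp1* (adjusted p = 1.8e-13) and −3.62 for *Tgtp2* (adjusted p = 1.5e-17). In each case all 3 confined cPLA_2_ WT libraries were above, and all 3 confined cPLA_2_ KO libraries below, the nonconfined libraries of their genotype, as was so for 31.6% and 27.9% of all genes tested. Groups of 3 libraries are too small to look for single outlying samples.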

How the results depend on the processing

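Of 1522 values of the members under the alternatives, 1477 kept their call and direction, 6 were weaker, 4 stronger and 35 reversed in sign. The reversed ones were 16 in the interaction of label and LPS, 13 between the LPS labels and 6 between the nonconfined genotypes, all near 0. With confinement, members called were 7 of 7 in each genotype under each scaling, filter, tool and library left out, and only a log2 threshold of 1 removed members, *Irgm1* and *Irgm2* in cPLA_2_ WT DCs. The number lower in nonconfined cPLA_2_ KO DCs went from 0 to 1, *Tgtp2*, with the same total per library (adjusted p = 0.026), a filter of 100 (adjusted p = 0.0495) and DESeq2 (adjusted p = 0.015). With libraries left out it ranged from 0 to 1, and it was 1 without the first nonconfined cPLA_2_ KO library. Over its alternatives the adjusted p ran from 0.015 to 0.27. Members lower in confined than in LPS libraries labelled cPLA_2_ WT went from 7 to 3 with a log2 threshold of 1.

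Reversed values between the LPS labels were −0.011 for *Irgm1* and −0.0035 for *Tgtp2* with TMM scaling. Between nonconfined genotypes *Ifi47* was −0.015 with the same total, and *Irgm1* 0.00029 with edgeR. The LPS interaction of *Igtp* was 0.0091 with the same total. With libraries left out, the nonconfined difference ranged from −0.039 to 0.027 for *Irgm1* and from −0.020 to 0.041 for *Ifi47*. The LPS interaction ranged from −0.024 to 0.042 for *Irgm1*, −0.067 to 0.033 for *Igtp*, −0.013 to 0.048 for *Ifi47* and −0.0092 to 0.243 for *Tgtp1*. The LPS labels differed by −0.027 to 0.024 for *Irgm1*, −0.042 to 0.085 for *Irgm2*, −0.012 to 0.088 for *Igtp*, −0.013 to 0.173 for *Iigp1*, −0.168 to 0.070 for *Tgtp1* and −0.0021 to 0.031 for *Tgtp2*.

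Over all genes, scaling to the same total changed the calls higher and lower from 5038 and 5075 to 3575 and 7403 for confinement in cPLA_2_ WT DCs, and from 1823 and 2796 to 4740 and 1967 for the interaction. They went from 854 and 734 to 756 and 1042 between nonconfined genotypes, and from 3356 and 3682 to 6002 and 2599 between confined ones. For LPS they went from 5965 and 5258 to 3164 and 9351 with the label cPLA_2_ WT, and from 5972 and 5384 to 3247 and 9244 with the label cPLA_2_ KO. For confined against LPS they went from 3864 and 4870 to 7369 and 2448, and from 5026 and 5475 to 9663 and 2794. The cause was not tested. A log2 threshold of 1 left 2038 higher with confinement in cPLA_2_ WT, 989 lower in cPLA_2_ KO DCs, 1173 lower in the interaction and 1307 lower between confined genotypes, and 206 genes between nonconfined ones. For LPS it left 2688 and 2686 higher by label and 49 in the interaction, and for confined against LPS 1342 and 2246 lower. The LPS interaction gave 228 genes, but 107 with the compared conditions alone, 454 with DESeq2 and 150 with a replicate block, which left each count of members the same. With libraries left out it ranged from 128 to 524, the latter without the second LPS library labelled cPLA_2_ WT. The count between nonconfined genotypes ranged from 756 to 2097, lowest without the first cPLA_2_ KO library, and that between LPS labels from 0 to 3. Residuals of libraries with the same number had correlations from −0.142 to 0.338, so libraries were not paired by number. Leaving out all LPS libraries, and confined libraries against LPS with the labels pooled, were added after the data had been seen.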

Other observations

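The times of collection differ between the nonconfined, confined and LPS groups, so treatment and time cannot be separated. Levels are of RNA, and no protein, interferon in the medium or vacuole was measured. Genotype cannot be separated from the sex of the donors in nonconfined and confined cells, and the labels of the LPS libraries are in doubt. *Tgtp1* and *Tgtp2* share most of their sequence, and the row of *Ifi47* also covers *Olfr56*, and reads were not separated further for these 3.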
